A study of Rattus norvegicus with 14 samples.

Results

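Hippocampus and heart of Sprague-Dawley rat pups, dissected at 7 days after birth, were compared on expression arrays, as a brain tissue set against a tissue outside the brain. The samples were chosen by their titles, which name the tissue and an age of 1 week, and comprised 3 hippocampus and 3 heart samples with 1 array each, 6 of the 10 biological samples of the series. Pup tissue was frozen at once and its mRNA was isolated in the laboratory, and no treatment was given. The sex of the pups is not given in the labels. The other 4 samples, 2 per tissue, were purchased RNA of male rats aged 10 weeks and were read on 2 arrays each. They entered the fit for the estimate of spread. The growth note of the labels also describes cultured cells and a dissected soma, whereas titles, tissue and extraction all describe whole tissue. The titles number the samples of a tissue as biological replicates. The p-values rest on the spread between samples within the 4 groups, adults included. The 4 groups share the strain and carry no transgene or allele in the labels.

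Cardiac muscle contracts by sliding of actin and myosin filaments, is switched on by calcium binding to troponin, and is fuelled mainly by mitochondrial oxidation of fatty acids. Many of its proteins come as families in which separate genes encode the heart, skeletal muscle, smooth muscle and non-muscle or brain forms of the same part. Neurons and glia of the hippocampus, a forebrain structure needed for memory formation, are in the first postnatal week still extending axons and dendrites, forming synapses and beginning to form myelin.

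Each value is a log2 intensity per probe set, a group of short oligonucleotides that reads 1 transcript region, and differences are hippocampus minus heart, so that a positive value means a higher level in hippocampus. A gene was called at an adjusted p under 0.05 (limma, Benjamini-Hochberg over 31042 probe sets) and was read by its brightest probe set. Of 14217 genes, 3609 (25.4%) were called, 1768 (12.4%) higher and 1841 (12.9%) lower in hippocampus, and of the probe sets 1615 (5.2%) had an adjusted p under 0.001. The 3 hippocampus samples lay above the 3 heart samples without overlap in 2657 genes (18.7%), and the 3 heart samples lay above in 3146 (22.1%). No filter on low values was used. Of the called genes, 3237 were above the array floor in both tissues, the floor being the highest 10th percentile of the 6 arrays (7.24). Another 333 were under it in 1 tissue, so that their differences have an uncertain size, and 39 in both. At the other end, arrays saturate just under 16, and differences between values above 15 are compressed. The call of 2272 genes (63%) held in each of 10 fits that left out 1 sample. Correlations of each array with the other 2 of its tissue across probe sets averaged 0.963, 0.958 and 0.961 for the hippocampus samples 1 to 3 and 0.938, 0.951 and 0.938 for the heart samples. Heart pup 3 had 372 probe sets at least 2 above both other heart samples, and hippocampus pup 2 had 256, against 39 to 195 in the other samples. Without heart pup 3, 3323 genes were called, and without hippocampus pup 2, 3077.

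Marker genes matched the labelled tissues. All 9 measured cardiomyocyte markers were lower in hippocampus (median difference −4.92), against a median of −0.09 over all genes. Their summed linear intensity was 14.59 to 14.99 on the log2 scale in hippocampus and 18.36 to 18.41 in heart. Markers of oligodendrocytes and myelin were higher in hippocampus for 7 of 12 genes and lower for 0 (median 2.25), of interneurons for 5 of 8 with 0 lower (1.99), of astrocytes for 6 of 10 with 1 lower (1.76), and of pyramidal and granule neurons for 6 of 12 with 1 lower (0.88). The myelin glycoprotein gene Mag read 14.64, 14.30 and 14.91 in hippocampus and 8.95, 8.91 and 8.52 in heart (5.82, SE 0.28, adjusted p = 5.96e-06). The 1 lower gene among the neuronal markers was Dsp, a desmosome protein that granule neurons and heart muscle both use. The 1 lower astrocyte gene was Aqp4, described with its other probe sets further on.

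Markers of other cells also differed. Of 6 choroid plexus and ependyma markers, Ttr, the carrier of thyroid hormone made by choroid plexus, and Folr1, a folate receptor, were higher in hippocampus, and Kl was lower. Ttr read 15.86, 15.91 and 15.53 in the hippocampus samples and 11.02, 10.83 and 10.75 in the heart samples (numbers 1 to 3, an order kept for every gene below), without overlap. The list's summed level was 15.78 to 16.14 in hippocampus and 12.63 to 13.62 in heart. In hippocampus that sum lay close to the level of Ttr alone. The median difference of the list was 0.11, with 3 members not called, so that the gap in the sum is not one of the whole list. In heart, the summed level was higher for fibroblasts and epicardium (16.24 to 16.80, against 13.76 to 14.42; 4 of 8 genes lower in hippocampus), red blood cells (16.14 to 16.39, against 14.99 to 15.31; 2 of 4), endothelium (16.60 to 16.64, against 15.94 to 16.25; 4 of 9 lower, 1 higher), adipose tissue (14.04 to 15.23, against 12.87 to 13.87; 4 of 7), thymus and lymphocytes (13.08 to 13.23, against 12.23 to 12.41; 1 of 7) and lung and airway (12.14 to 12.30, against 11.25 to 11.52; 1 of 7). For thymus and lymphocytes and for lung and airway, the share called lower (14.3%) was near the 12.9% of all genes. Of the 7 lung and airway genes, 2 were under the array floor in both tissues. Of 10 skeletal muscle markers 1 (10%, against 12.9% of all genes), Ckm, which heart muscle also expresses, was lower in hippocampus. Of 12 microglia and macrophage markers 3 (25%, against 12.9% of all genes) were lower (Mrc1, Itgam and Tyrobp). Of these calls 2 held in all 10 fits without 1 sample. The count was 2 under each scaling and 0 of 7 among brighter probe sets. Of 9 smooth muscle and pericyte markers 3 were lower, among them the muscle gene Des (−4.29). The 1 higher was Pdgfrb, whose direction turned when its probe sets were averaged. Among brighter probe sets of that list 1 of 5 was lower and 0 higher. Of 7 atrium and conduction markers 3 were lower and 1 higher, Tbx3, a call described further on. Summed levels were higher in heart, without overlap, for skeletal muscle (15.70 to 15.96, against 14.56 to 15.27) and microglia (14.96 to 15.51, against 13.93 to 14.89). The same held for smooth muscle (15.42 to 15.66, against 14.72 to 15.17) and atrium (16.62 to 17.44, against 15.83 to 16.20). Smaller counts were found for oligodendrocyte precursors (1 higher and 1 lower of 5), thalamus and striatum (1 higher and 2 lower of 8) and peripheral nerve (1 higher of 6, Dbh, by 2.27). With so few genes, these counts cannot be told apart from the 12.4% higher and 12.9% lower of all genes. In such bulk tissue, fewer cells of a type and less RNA per cell cannot be told apart, and the part of these other cells in any single difference was not tested.

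**Figure D1:**
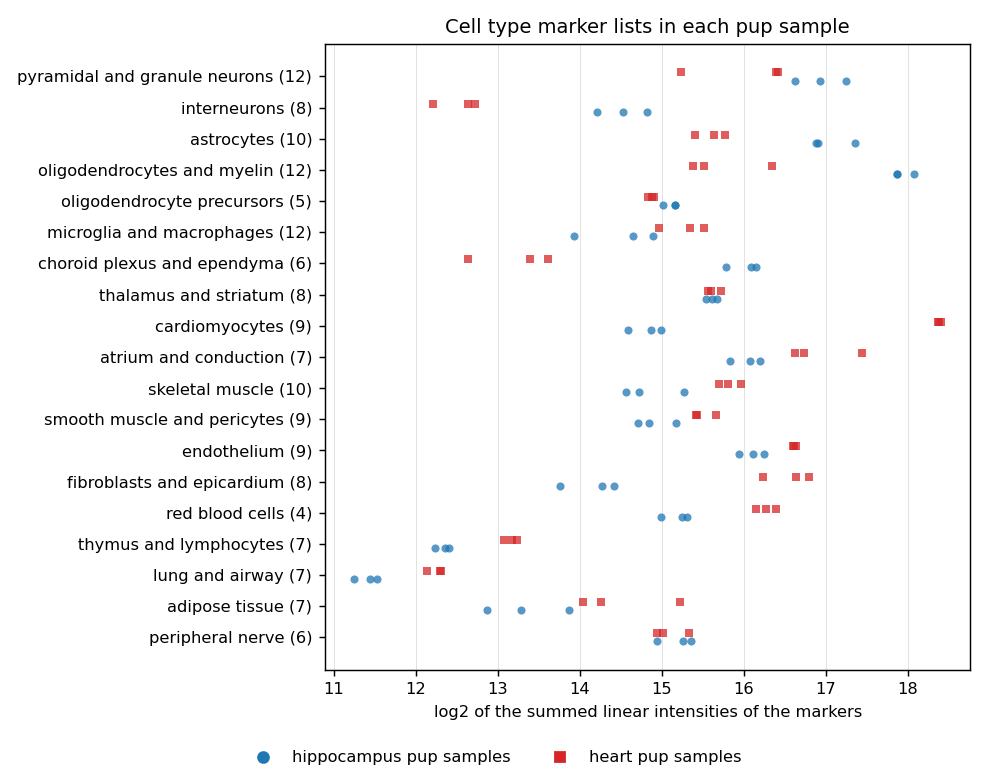
Summed level of each marker list (horizontal axis, log2 of the summed linear intensities; number of genes in parentheses) in the 3 hippocampus pup samples (blue circles) and the 3 heart pup samples (red squares). Cardiomyocyte markers sit at 14.59 to 14.99 in hippocampus and 18.36 to 18.41 in heart, and oligodendrocyte markers at 17.87 to 18.07 and 15.38 to 16.34.

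A gene of the Y chromosome was read as a check of the samples. Eif2s3y, a Y-linked translation initiation factor subunit, read 9.91, 5.75 and 9.46 in hippocampus and 3.89, 9.41 and 8.72 in heart. It lay under the floor in hippocampus pup 2 and in heart pup 1 and above it in the other 4 samples. The hippocampus and heart samples that share the number 1 differ in this gene, as do those that share the number 2, so a shared number is not shown to mark 1 animal. Because neither tissue is uniform, sex-linked genes were not read as tissue differences.

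**Figure D2:**
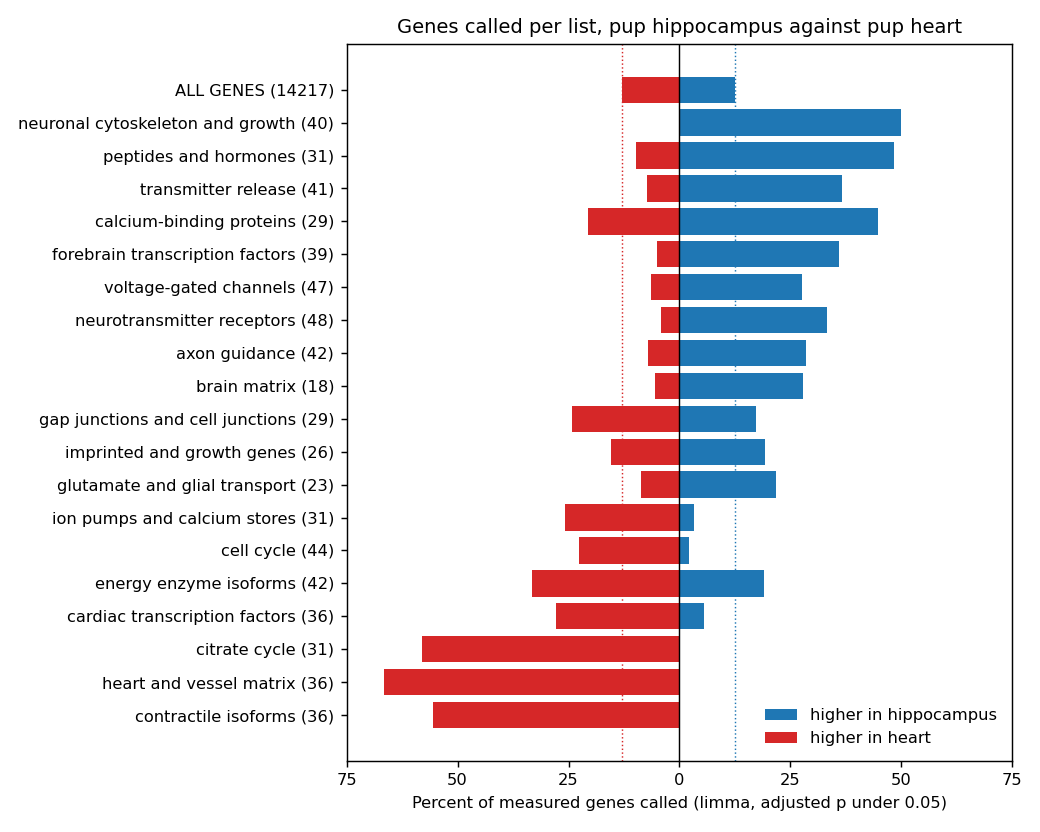
Percent of the measured genes of each list (number in parentheses) called higher in hippocampus (blue, to the right) or higher in heart (red, to the left; limma, adjusted p under 0.05), with dotted lines at the 12.4% and 12.9% of all genes. Neuronal cytoskeleton and growth stands at 50% higher and 0 lower, and heart and vessel matrix at 0 higher and 66.7% lower.

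Contractile genes of heart muscle were lower in hippocampus, while several close relatives used by fast skeletal muscle or by other cells were not called. Of 36 measured contractile genes 20 (55.6%) were lower and 0 higher (median −1.49), against 12.9% and 12.4% of all genes, and 19 or 20 were lower in every fit without 1 sample. Troponin, the calcium switch of striated muscle, has such relatives for each subunit. Tnnc1, the calcium sensor of slow and cardiac muscle, read 9.52, 8.76 and 8.94 in hippocampus and 15.45, 15.52 and 15.06 in heart. Tnnc2, the calcium sensor of fast skeletal muscle, read 7.51, 7.29 and 7.45 in hippocampus and 7.63, 6.92 and 7.29 in heart, close to the floor. Tnnc1 did not overlap between tissues and Tnnc2 did, with differences of −6.27 (SE 0.25, adjusted p = 4.16e-06) and 0.14 (SE 0.25, adjusted p = 0.739). Tnnt2, the cardiac tropomyosin-binding troponin, read 11.31, 8.66 and 10.65 in hippocampus and 15.53, 15.22 and 15.57 in heart, whereas the fast skeletal Tnnt3 read 11.17, 11.23 and 11.34 against 11.34, 11.41 and 11.01. Heart samples were higher for Tnnt2 in all 3 cases (−5.24, SE 0.55, adjusted p = 0.000151), and the Tnnt3 samples were intermingled (adjusted p = 0.992). Among inhibitory troponins, cardiac Tnni3 differed by −4.92 (SE 0.39, adjusted p = 2.76e-05). Tnni1, the slow skeletal form that the fetal heart also uses, differed by −2.62 (SE 0.58, adjusted p = 0.00982), and fast skeletal Tnni2 by −0.58 (adjusted p = 0.0887). Tnni1 was uneven among hearts, with 11.14, 11.30 and 13.64 in pups 1 to 3.

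Myosin, the motor of contraction, has heavy and light chains. Myh6, the fast cardiac heavy chain, read 12.87, 10.57 and 12.89 in hippocampus and 15.95, 15.96 and 15.93 in heart, where all 3 arrays were at the top of the scale, so that its difference of −3.84 (SE 0.53, adjusted p = 0.000763) is compressed. Myh7, the slow heavy chain of fetal ventricle and of slow skeletal muscle, read 7.21, 8.22 and 8.20 in hippocampus and 9.17, 11.02 and 10.87 in heart (−2.48, SE 0.48). Heart pup 1 was the lowest heart sample for Myh7 and still lay above every hippocampus sample. The embryonic skeletal Myh3 (−0.04), smooth muscle Myh11 (−1.06) and non-muscle Myh10 (0.20) were not called, and non-muscle Myh9 was lower by −1.07 (SE 0.19, adjusted p = 0.00324). Of the light chains, ventricular Myl3 (−5.68) and Myl2 (−4.93), the atrial Myl4 (−3.76) and Myl7 (−2.66) and the smooth muscle Myl9 (−3.76) were all lower in hippocampus, and fast skeletal Myl1 (−0.73) was not called. Myl4, an atrial light chain, varied among hearts, with 12.49, 10.36 and 11.34, against 7.70, 7.48 and 7.73 in hippocampus.

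Actin and its crosslinkers make up the thin filament and the Z-disc. Acta1, skeletal alpha actin, which the young rodent heart also expresses, read 9.64, 8.45 and 8.82 in hippocampus and 14.64, 15.11 and 14.66 in heart (−5.83, SE 0.35, adjusted p = 8.62e-06). Smooth muscle Acta2 (−0.57, adjusted p = 0.397) and cytoplasmic Actg1 (−0.26, adjusted p = 0.599) overlapped between tissues on their brightest probe sets. The other probe set of Actg1 was called higher by 1.89 (adjusted p = 0.0082; 14.37, 14.42 and 15.33 against 12.70, 13.19 and 12.56). Actn2, the alpha actinin of the Z-disc, read 7.25, 6.41 and 6.35 in hippocampus, under the floor on average, and 11.69, 12.13 and 11.64 in heart, a difference of −5.15 whose size is therefore uncertain. The non-muscle alpha actinins Actn1 (1.04, adjusted p = 0.0734) and Actn4 (0.03) were not called. The Z-disc protein Ldb3 (−5.05) and the M-band proteins Myom2 (−5.47) and Myom1 (−1.91), the cardiac myosin-binding protein Mybpc3 (−2.80) and the titin gene Ttn (−5.24) were lower, whereas the titin cap Tcap (−0.67, adjusted p = 0.264) and the tropomyosins Tpm2 (−0.76, adjusted p = 0.0506), Tpm3 (−0.00) and Tpm4 (−0.22) were not called. Tnnt1 was called at −0.90 with both tissues under the floor, which leaves it unread.

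**Figure D3:**
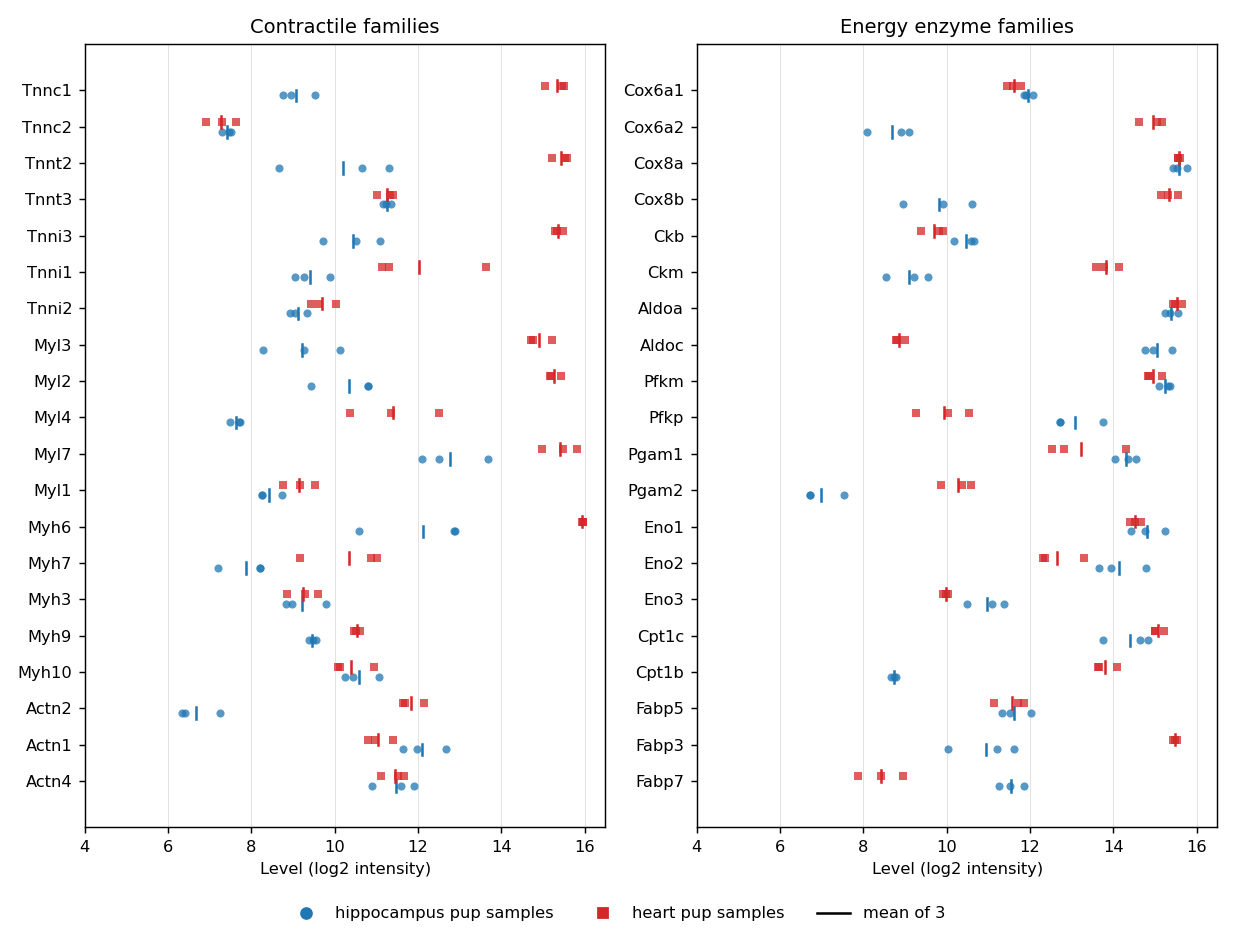
Level (log2 intensity) of members of contractile families (left panel) and energy enzyme families (right panel) in the 3 hippocampus pup samples (blue circles) and 3 heart pup samples (red squares), with vertical bars at the mean of 3. The heart samples of Tnnc1 sit at 15.06 to 15.52 and those of Tnnc2 at 6.92 to 7.63. The hippocampus samples of Cox6a2 sit at 8.09 to 9.10 and those of Cox6a1 at 11.86 to 12.08.

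Of the 1841 genes lower in hippocampus, 187 were under the floor in hippocampus alone, and the levels of the others varied there from sample to sample. Among the 102 genes lower in hippocampus by more than 3, hippocampus pup 2 was the lowest hippocampus sample in 58 (56.9%, against 41.3% over all genes) and hippocampus pup 1 the highest in 57 (55.9%, against 31.5%). Tnnt2, Myom2 (10.14, 7.98 and 9.46) and Casq2 (10.57, 8.70 and 9.63) followed this order, and Myl3 (9.25, 10.13 and 8.28) did not. Among the 171 genes higher in hippocampus by more than 3, the heart samples shared the lowest place at 30.4%, 30.4% and 39.2%, against 34.5%, 27.4% and 38.1% over all genes. The summed cardiomyocyte markers did not follow the order seen in the 102 genes either, at 14.87, 14.99 and 14.59. These sums add linear values, so that bright members weigh most. One such member is Pln, a calcium pump inhibitor, whose brightest probe set was highest in hippocampus pup 2. The order of the other members was not read from these sums, and the part of muscle RNA in hippocampus levels was not tested.

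Promoters are shown for 5 of the genes lower in hippocampus that hold a match to a motif of muscle genes, chosen with their matches known, with Tubb2a, a neuronal tubulin higher in hippocampus by 3.62, for contrast. Sequences are those of RefSeq on GRCr8, 150 bases that end just before the annotated start of the gene, printed 5′ to 3′ on the strand of the gene. This build is not one used by the array files. Capitals mark matches on either strand to the MEF2 motif, bound by the MEF2 factors of muscle and brain, to the CArG box, bound by serum response factor, or to TATAAA. Cox6a2 lies at chr1:192219717-192219866 (minus strand) and holds a MEF2 match that begins 50 bases before the start. Casq2, which encodes the calcium store protein of the heart, lies at chr2:192214406-192214555 (plus strand) and has a MEF2 match at 149 bases before the start. Acta1 at chr19:68784195-68784344 (minus strand) has a CArG box at 94 and TATAAA at 29 bases. Myl3 at chr8:119616944-119617093 (plus strand) and Ldb3 at chr16:9924680-9924829 (minus strand) have CArG boxes at 97 and 52 bases. Tubb2a at chr17:31002036-31002185 (plus strand) has TATAAA at 31 bases and neither muscle motif. Myoz2, Smpx, Fhl2 and Cav3, also lower by more than 3, held a match in the same window and are not shown, and Tnnt2, Tnni3, Ckm, Myh6 and Des held neither muscle motif.
Cox6a2: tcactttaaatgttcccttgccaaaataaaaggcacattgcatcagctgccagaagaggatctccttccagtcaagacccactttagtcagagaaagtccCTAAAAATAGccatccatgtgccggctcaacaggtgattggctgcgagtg
Casq2: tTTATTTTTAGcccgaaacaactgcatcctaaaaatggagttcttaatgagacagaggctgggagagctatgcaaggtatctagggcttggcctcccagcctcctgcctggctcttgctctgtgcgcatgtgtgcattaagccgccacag
Acta1: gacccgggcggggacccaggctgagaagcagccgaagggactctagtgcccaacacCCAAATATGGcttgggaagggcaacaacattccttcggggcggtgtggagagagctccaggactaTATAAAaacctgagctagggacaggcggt
Myl3: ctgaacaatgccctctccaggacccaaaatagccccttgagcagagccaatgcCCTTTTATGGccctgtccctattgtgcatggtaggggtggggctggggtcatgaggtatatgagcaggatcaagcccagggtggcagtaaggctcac
Ldb3: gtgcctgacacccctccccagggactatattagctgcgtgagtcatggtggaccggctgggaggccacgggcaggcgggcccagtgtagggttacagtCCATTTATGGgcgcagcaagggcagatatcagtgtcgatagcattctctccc
Tubb2a: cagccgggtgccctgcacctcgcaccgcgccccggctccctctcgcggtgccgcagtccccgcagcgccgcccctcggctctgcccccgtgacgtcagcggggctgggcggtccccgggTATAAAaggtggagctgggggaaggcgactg

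Counts of these motifs are descriptive, since the sets of genes were chosen by their measured difference. In the 250 bases before the start, a MEF2 match was found in 7 of the 79 genes (8.86%) lower in hippocampus by more than 3 that had a promoter in the table, in 3 of 125 (2.4%) higher by more than 3, in 1.61% of 11700 measured genes and in 3.07% of 27457 promoters. The CArG box was found in 4 (5.06%), 0, 1.24% and 1.5% of these sets. TATAAA was found in 15 (19%), 9 (7.2%), 8.06% and 13.1%. The general motifs CANNTG (72.2%, 64.8%, 58.8% and 65.2%), GATAA (22.8%, 14.4%, 16% and 23.2%) and TGACGTCA (3.8%, 3.2%, 2.64% and 1.7%) were closer together. GGGCGG was found in 43.0%, 62.4%, 54.2% and 32.4%, and the median number of CG pairs was 6, 17, 15 and 6. Both strands were searched. A MEF2 and a TATAAA match can overlap, as they do in Fhl2, a gene looked at after its values were seen. A match names letters in this window and no binding.

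Of 42 measured isoform genes of energy metabolism 14 (33.3%) were lower and 8 (19%) higher in hippocampus (median −0.32). Cox6a2, the heart and muscle form of a cytochrome c oxidase subunit, read 9.10, 8.09 and 8.90 in hippocampus and 14.63, 15.16 and 15.04 in heart, which is −6.25 (SE 0.32, adjusted p = 6.09e-06) or 75.9-fold. Its widely expressed partner Cox6a1 read 12.08, 11.91 and 11.86 in hippocampus and 11.59, 11.79 and 11.44 in heart, which is 0.34 higher without overlap but not called (adjusted p = 0.318). Cox8b and Cox8a formed a like pair. Cox8b, the muscle form, read 10.60, 8.94 and 9.91 against 15.32, 15.55 and 15.13, and Cox8a, the form of other tissues, read 15.43, 15.54 and 15.78 against 15.56, 15.60 and 15.56. The differences were −5.52 (SE 0.37) and 0.01 (SE 0.19, adjusted p = 0.969), the latter within the compressed range above 15. Cox7a1, a further muscle form, differed by −0.86 (SE 0.25, adjusted p = 0.0351), a call that held in 4 of 10 fits, and Cox4i1 (−0.36) and Cox4i2 (−1.17) were not called.

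Creatine kinase, which buffers ATP, comes as muscle, brain and mitochondrial genes. Ckm, the muscle form, read 9.56, 8.54 and 9.20 in hippocampus and 13.78, 14.14 and 13.58 in heart (−4.73, SE 0.32), and Ckmt2, the mitochondrial form of muscle, differed by −5.66. Ckb, the brain form, read 10.57, 10.18 and 10.66 in hippocampus and 9.92, 9.80 and 9.38 in heart. All 3 hippocampus samples were higher, but the difference was 0.77 (SE 0.23, adjusted p = 0.0388) and its call held in 2 of 10 fits. Ckmt1, the mitochondrial form found widely, was not called (−1.16, adjusted p = 0.0543). Adenylate kinase Ak5, found mostly in brain, read 11.46, 11.32 and 11.76 against 8.33, 8.52 and 8.12, and differed by 3.19 (SE 0.21, adjusted p = 1.25e-05), hippocampus being higher.

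Glycolysis and glycogen enzymes are given form by form. Aldoc, the aldolase of astrocytes, read 14.76, 14.96 and 15.41 in hippocampus and 8.80, 8.77 and 8.99 in heart, and Aldoa, the muscle and general form, read 15.23, 15.36 and 15.55 against 15.44, 15.66 and 15.49. Hippocampus samples stood apart for Aldoc (6.19, SE 0.27, adjusted p = 4.16e-06) and overlapped with heart for Aldoa (−0.15, adjusted p = 0.652). Every Aldoa value lay above 15, in the compressed range, so that a difference could be hidden. Pfkp, the platelet form of phosphofructokinase that brain also uses, read 12.72, 12.73 and 13.76 against 9.26, 10.53 and 10.02 (3.13, SE 0.39), and the muscle form Pfkm did not differ beyond its error (0.30, SE 0.26, adjusted p = 0.454). Pgam2, the muscle phosphoglycerate mutase, was lower by −3.29 with hippocampus under the floor, and Pgam1 was not called (1.09, adjusted p = 0.111). The neuronal enolase Eno2 was higher by 1.47 (SE 0.37, adjusted p = 0.0175) and held in 7 of 10 fits. Eno3, known as the muscle enolase, was also higher, by 1.00 (SE 0.27, adjusted p = 0.0258; 11.08, 10.48 and 11.36 against 9.92, 9.97 and 10.04) and held in 6 of 10, and Eno1 was not called (0.28). Of the glycogen phosphorylases, the muscle form Pygm (−3.75) and the brain form Pygb (−1.08) were both lower in hippocampus and the liver form Pygl was not called (−0.50). Lactate dehydrogenase Ldha (−1.48) and hexokinase Hk1 (−1.35) were lower, and none of the glucose carriers Slc2a1 (0.31), Slc2a3 (1.32) and Slc2a4 (−0.28) was called.

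Genes that carry fatty acids also differed by form. Cpt1b, the muscle form of the enzyme that commits fatty acids to import, read 8.74, 8.66 and 8.79 in hippocampus and 13.64, 14.10 and 13.64 in heart (−5.06, SE 0.27, adjusted p = 6.75e-06). Cpt1a, the liver form, read 8.37, 8.66 and 8.13 against 9.47, 9.71 and 13.54. Its heart samples were all higher, but heart pup 3 stood far above the others and the gene was not called (−2.52, SE 1.03, adjusted p = 0.108). The brain form Cpt1c was not called (−0.67, adjusted p = 0.143). Among the fatty acid binding proteins, Fabp3 of heart read 11.61, 10.03 and 11.20 against 15.48, 15.53 and 15.42 (−4.53, SE 0.37), and Fabp7 of radial glia and young astrocytes read 11.51, 11.25 and 11.85 against 8.95, 8.42 and 7.87 (3.12, SE 0.35). Each was without overlap. Fabp5 was not called (0.06), and Fabp4, found in fat cells and capillaries, was lower by −2.82 with hippocampus under the floor.

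Citrate cycle genes were lower in hippocampus as a group. Of 31 measured genes 18 (58.1%) were lower and 0 higher (median −0.95), and between 15 and 19 were lower in fits without 1 sample. Idh2, the NADP-dependent mitochondrial isocitrate dehydrogenase, read 10.18, 9.52 and 9.66 in hippocampus and 13.95, 14.52 and 13.72 in heart (−4.28, SE 0.29, adjusted p = 1.48e-05). Every heart sample lay well above every hippocampus sample. Idh3b, a subunit of the NAD-dependent enzyme (−2.62, SE 0.26), and the succinate dehydrogenase subunits Sdhb (−2.60, SE 0.28) and Sdha (−2.40, SE 0.29) followed. The members not called numbered 13.

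Of 31 measured genes of ion pumps and calcium stores 8 (25.8%) were lower and 1 (3.23%) higher (median −0.19). Casq2, the calcium buffer of the cardiac store, read 10.57, 8.70 and 9.63 in hippocampus and 13.79, 13.92 and 13.45 in heart (−4.09, SE 0.40, adjusted p = 9.82e-05). Sln, sarcolipin, an inhibitor of the calcium pump found in atria, read 9.82, 9.23 and 9.62 against 15.20, 12.33 and 13.75. The hearts differed widely among themselves in Sln and all lay above hippocampus (−4.21, SE 0.58, adjusted p = 0.000725). In the same order, heart pup 1 was also the highest and heart pup 2 the lowest for the atrial genes Myl4 and Nppa (15.29, 13.28 and 14.68). The atrium list summed to 17.44, 16.62 and 16.74 in heart pups 1 to 3. It holds Sln and Nppa, so that its sum is no separate reading of this order. The genes given for this order were picked with their values seen, and the order is not shown for the other members of the list. The release channel Ryr2 (−1.61), the sodium-calcium exchanger Slc8a1 (−1.52), the pump inhibitor Pln (−1.92), the anchor Trdn (−0.86), the pump regulator Fxyd1 (−2.10) and Asph (−3.81), whose gene also encodes junctin, were lower too on their brightest probe sets. Of the 3 other probe sets of Asph, 1 was called higher by 0.97 (adjusted p = 0.0124; 9.44, 9.22 and 9.82 against 8.46, 8.51 and 8.58) and the others, at −0.31 and 0.64, were not called. Outside this list, Hrc, a calcium-binding protein of the same store, differed by −5.24 (8.66, 7.86 and 8.08 against 13.10, 13.82 and 13.40).

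The plasma membrane pump Atp2b2, found mainly in neurons, was the only member of that list called higher by its brightest probe set, at 11.64, 11.44 and 11.52 in hippocampus and 9.25, 9.16 and 8.96 in heart (2.41, SE 0.20, adjusted p = 3.94e-05), and another probe set of it read −0.85 and was not called. The ryanodine receptors Ryr1 (−0.13) and Ryr3 (0.51), the inositol trisphosphate receptors Itpr1 (0.22), Itpr2 (−0.59) and Itpr3 (0.19), the junctophilins Jph1 (−0.08), Jph2 (−0.59) and Jph3 (−0.19), and the sodium pump subunits Atp1b1 (0.64), Atp1b2 (0.53) and Atp1b3 (0.51) were not called. Dimmer probe sets of Atp1b1 (2.30, adjusted p = 0.000484; 12.62, 12.28 and 13.26 against 10.49, 10.46 and 10.30), of Atp2b3 (1.47) and of Atp2b1 (3.47 and 3.07) were called higher. Jph2, the junctophilin of heart, was uneven among hearts, at 12.95, 15.50 and 14.74.

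Matrix genes of heart and vessel were lower in hippocampus for 24 of 36 members (66.7%), with 0 higher (median −1.46; 21 to 24 without 1 sample). Col3a1, a fibrillar collagen, read 11.41, 10.82 and 11.09 in hippocampus and 15.45, 15.45 and 15.04 in heart (−4.21, SE 0.27, adjusted p = 1.11e-05). Postn, periostin, a matrix protein of growing valves and fibroblasts, read 7.86, 7.33 and 7.25 against 11.89, 11.67 and 11.40 (−4.17, SE 0.24, adjusted p = 7.15e-06). Neither overlapped between tissues. Col1a1 differed by −3.41 (SE 0.52), with hippocampus pup 3 at 12.83 and the other hippocampus samples at 10.80 and 10.64, and the laminin chain Lamb2 by −3.36 (SE 0.23). The fibroblast marker list given above shares Col1a1 and Col3a1 with this list, so that it is no separate reading. Of 18 brain matrix genes 5 (27.8%) were higher and 1 lower (median 0.04). Ptprz1, a receptor phosphatase whose secreted form is a brain proteoglycan, read 11.36, 11.28 and 11.40 against 8.0, 8.21 and 8.01 (3.28, SE 0.19, adjusted p = 7.33e-06). Its ligand Ptn, a growth factor of the young brain, was higher by 2.47 (SE 0.19), and the perineuronal proteoglycan Bcan and the astrocyte protein Sparcl1 by 2.60 and 2.58. The dimmer Bcan probe set read −0.77 and was not called (adjusted p = 0.281). The cell-surface proteoglycan Gpc1 was lower by −0.97, a call that held in 4 of 10 fits.

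Junction genes went in both directions, with 5 of 29 (17.2%) higher and 7 (24.1%) lower, against 12.4% and 12.9% of all genes. Their median was −0.03, or 0.05 with each array centred on its median. Desmosomal Dsp (9.90, 9.04 and 9.68 against 13.26, 13.39 and 13.11; −3.71, SE 0.29) and Dsg2 (−2.28) and the intercalated disc and filament proteins Nexn (−3.54) and Xirp1 (−2.95) were lower in hippocampus. Nrxn3, a presynaptic adhesion protein (3.88, SE 0.67), Pcdh9, a neural cadherin (3.38), Cldn11, a myelin tight junction protein (2.38), and Gjb6, an astrocyte connexin (1.95), were higher. For Nrxn3 heart pup 3 (10.98) stood above the other hearts (8.54 and 7.90) and below all hippocampus samples (12.69, 12.79 and 13.59).

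Cardiac transcription factors and regulators were lower in hippocampus for 10 of 36 genes (27.8%) and higher for 2 (5.56%; median −0.41). Among brighter probe sets only, 3 of 23 were lower (median −0.06), against 1037 of 8847 genes. Csrp3, a muscle LIM protein, read 8.58, 8.46 and 8.16 in hippocampus and 12.61, 12.84 and 12.70 in heart (−4.32, SE 0.24, adjusted p = 6.91e-06), without overlap. Ankrd1, a stretch-responsive cofactor (−3.58, SE 0.58), Tbx5, a T-box factor of heart and forelimb (−3.05, SE 0.29, hippocampus under the floor), and Tcf21, a factor of the epicardium (−2.02, SE 0.23), were lower too. Mef2c, which acts in both heart muscle and neurons, was higher in hippocampus at 10.60, 10.53 and 10.12 against 8.92, 9.48 and 9.39 (1.15, SE 0.29, adjusted p = 0.0167), a call held in 7 of 10 fits. Tbx3 was called higher by 0.68, held in 1 of 10 fits, and turned to −0.29 when its probe sets were averaged. Forebrain transcription factors were higher for 14 of 39 genes (35.9%) and lower for 2 (5.13%; median 0.40). Nr2f1, a nuclear receptor that patterns cortex and hippocampus, read 12.94, 12.89 and 13.81 against 8.97, 9.13 and 9.17 (4.12, SE 0.29, adjusted p = 1.79e-05). The POU factor Pou3f3 (2.94, heart under the floor), the LIM factor Lhx2 (2.81) and the neuronal zinc finger gene Myt1l (2.62) followed. Pax6 and Zic1, which act in neural progenitors, read lower in hippocampus than in heart by −1.20 (SE 0.33, adjusted p = 0.0252) and −1.30 (SE 0.35, adjusted p = 0.0235), and both calls held in 6 of 10 fits.

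Cell cycle genes were lower in hippocampus for 10 of 44 members (22.7%) and higher for 1 (2.27%; median −0.28). Among brighter probe sets only, 2 of 27 were lower and 0 higher (median −0.03), against 1037 of 8847 genes lower. Ccnb2, a cyclin of mitosis, read 7.28, 7.55 and 7.43 in hippocampus and 10.04, 10.04 and 9.89 in heart (−2.57, SE 0.19, adjusted p = 2.07e-05). Both tissues were tight and far apart. The spindle checkpoint kinase Bub1 read 6.65, 6.91 and 7.12, under the floor, against 9.34, 9.67 and 9.29 (−2.54, SE 0.22). Cenpe, a kinetochore motor, differed by −3.16 (SE 0.72, adjusted p = 0.0114) over hearts that ranged from 9.17 to 12.41, and Top2a, a topoisomerase of dividing cells, by −1.57 (SE 0.32). Tyms, the thymidylate synthase, was the only cell cycle gene called higher (1.23, SE 0.35, adjusted p = 0.0292; 7 of 10 fits).

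Neuronal cytoskeleton and growth genes were higher in hippocampus for 20 of 40 members (50%) and lower for 0 (median 0.99; 16 to 20 higher without 1 sample). Map2, the microtubule protein of dendrites, read 10.24, 10.62 and 10.25 in hippocampus and 4.13, 4.68 and 5.18 in heart, under the floor, so that its difference of 5.70 (SE 0.28, adjusted p = 5.96e-06) has an uncertain size. Tubb2a read 14.51, 14.87 and 15.35 against 11.72, 11.29 and 10.88 (3.62, SE 0.30, adjusted p = 4.16e-05). Gap43, a protein of growing axon tips, read 12.62, 12.24 and 13.15 against 9.01, 9.0 and 9.63 (3.45, SE 0.30). Hippocampus lay above heart in every sample of these genes, and the neurofilament Nefm did so too (3.56, SE 0.43). Tagln3, a neuronal actin-binding protein outside this list, was higher by 6.37 (13.54, 13.18 and 14.68 against 7.45, 7.79 and 7.05), and Gpm6a, a membrane glycoprotein of neurites, by 5.50 (13.76, 13.63 and 14.68 against 8.87, 8.49 and 8.20). Nell2, a secreted protein of neurons, read 13.55, 13.44 and 14.68 against 7.48, 7.39 and 8.36 (6.15, SE 0.40), and Zcchc18, a zinc finger gene, 13.23, 12.94 and 14.14 against 7.30, 7.25 and 7.74 (6.01, SE 0.35). In all of these the lowest hippocampus sample lay far above the highest heart sample.

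Axon guidance genes were higher for 12 of 42 members (28.6%) and lower for 3 (7.14%; median 0.12). Nrp2, a semaphorin receptor, read 13.34, 13.72 and 13.65 in hippocampus and 10.57, 11.31 and 11.14 in heart (2.56, SE 0.26, adjusted p = 0.000122). The semaphorin Sema3e (2.55, SE 0.32), the ephrin Efna5 (2.20, SE 0.29) and the adhesion protein Flrt3 (2.15, SE 0.28) were higher as well. Ntn1, the guidance cue netrin, went the other way, at 9.09, 8.33 and 8.23 against 10.48, 10.90 and 10.69 (−2.14, SE 0.28, adjusted p = 0.000575). The semaphorin receptors Plxnd1 (−1.98, SE 0.56; heart pup 1 at 12.30 and the others at 10.10 and 10.16), which vessels use, and Plxna3 (−1.46, SE 0.25) were lower, and a dimmer Plxna3 probe set was higher by 0.80 (adjusted p = 0.041).

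More members were higher than lower in hippocampus in each of the receptor, channel and release lists, and most members of each were not called. Of 48 neurotransmitter receptor genes 16 (33.3%) were higher and 2 (4.17%) lower (median 0.20). Gria2, the AMPA receptor subunit that limits calcium entry, read 13.55, 13.88 and 14.69 in hippocampus and 8.64, 8.75 and 8.54 in heart (5.4, SE 0.28, adjusted p = 6.51e-06). Gabrb1, a GABA receptor subunit, read 13.12, 12.98 and 12.95 against 8.74, 8.62 and 8.23 (4.49, SE 0.22). Both stood apart in every sample, as did the cannabinoid receptor Cnr1 (4.19, SE 0.22) and Gabra5, the GABA receptor subunit typical of hippocampus (3.75, SE 0.32). Gria1, another AMPA receptor subunit, read lower in hippocampus, at 9.21, 9.59 and 9.66 against 10.66, 11.41 and 10.94 (−1.52, SE 0.39, adjusted p = 0.0188; 8 of 10 fits). It was read by 1 probe set. Grm7, a metabotropic glutamate receptor, differed by −0.98 with hippocampus under the floor.

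Of 47 voltage-gated channel genes 13 (27.7%) were higher and 3 (6.38%) lower (median 0.24). Scn3b, an accessory sodium channel subunit, read 13.92, 14.18 and 15.10 in hippocampus and 10.84, 9.68 and 9.44 in heart (4.41, SE 0.44, adjusted p = 0.00011). The neuronal sodium channel Scn2a was higher by 2.89 with heart under the floor, and the calcium channel genes Cacnb3 and Cacna1a by 2.46 (SE 0.27) and 2.28 (SE 0.45). The 4 other Cacna1a probe sets were not called. Cacna1d, a calcium channel of pacemaker cells and neurons, was lower by −1.16 (SE 0.30; 7 of 10 fits), Cacnb4 by −1.02 with hippocampus under the floor, and Kcna2 by −2.06 on its brightest probe set.

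Of 41 transmitter release genes 15 (36.6%) were higher and 3 (7.32%) lower (median 0.62). Snap25, a membrane fusion protein of nerve endings, read 14.45, 15.20 and 15.64 in hippocampus and 9.48, 9.63 and 10.08 in heart (5.37, SE 0.34, adjusted p = 1.06e-05). Nsf, the ATPase that recycles the fusion complex, read 13.82, 14.47 and 14.96 against 9.73, 9.64 and 9.86 (4.67, SE 0.31), and Cplx1, a clamp on fusion, differed by 4.69 (SE 0.51). In all 3 genes hippocampus pup 3 was the highest sample and heart was far below. Gad1, which makes GABA, was higher by 4.45 with heart just under the floor. Syt11, a synaptotagmin that does not bind calcium, read lower in hippocampus, at 7.98, 7.68 and 8.23 against 9.47, 9.28 and 9.61 (−1.49, SE 0.25), and Syn3 (−1.10) and Sh3gl2 (−0.99; 6 of 10 fits) were lower too.

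**Figure D4:**
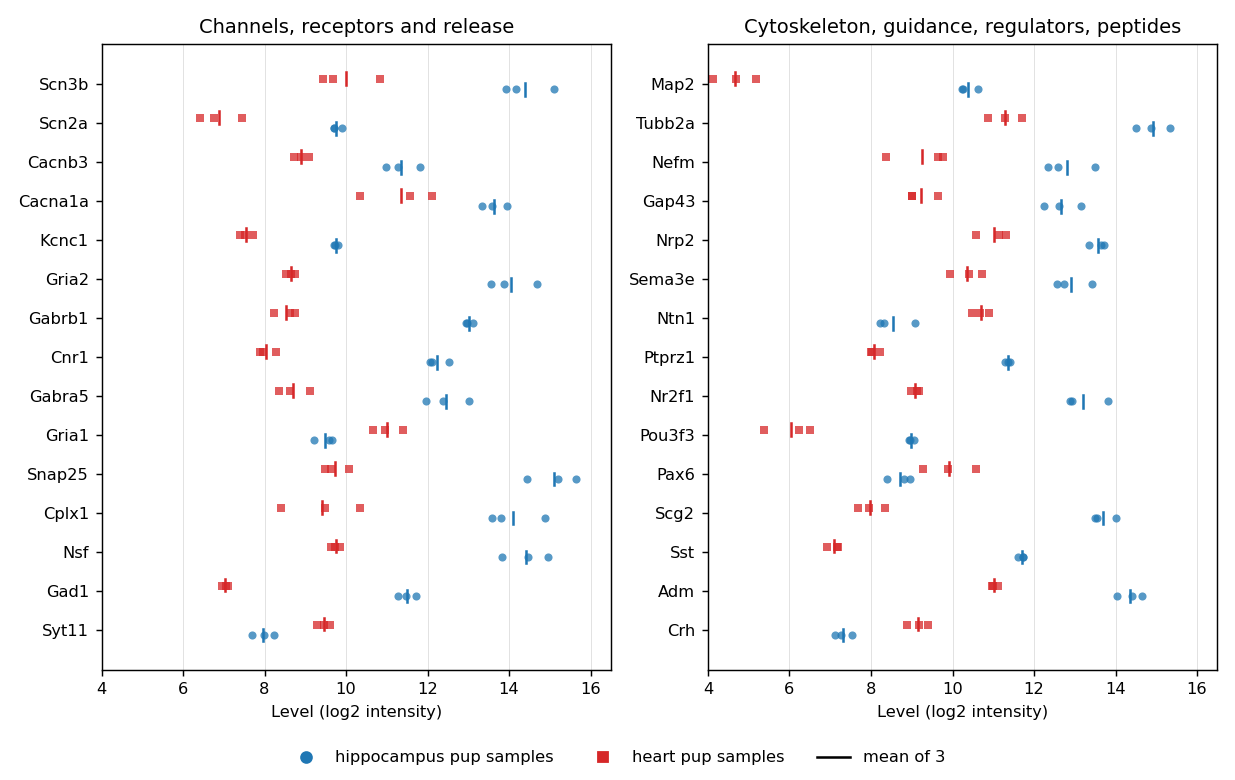
Level (log2 intensity) of channel, receptor and release genes (left panel) and of cytoskeleton, guidance, regulator and peptide genes (right panel) in the 3 hippocampus pup samples (blue circles) and 3 heart pup samples (red squares), with vertical bars at the mean of 3. Gria2 sits at 13.55 to 14.69 in hippocampus and 8.54 to 8.75 in heart, whereas Gria1, Syt11, Ntn1, Pax6 and Crh sit higher in heart.

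Peptide and hormone genes were higher in hippocampus for 15 of 31 members (48.4%) and lower for 3 (9.68%; median 0.90). Scg2, a granin of secretory vesicles, read 13.49, 13.55 and 14.01 in hippocampus and 7.94, 8.34 and 7.68 in heart (5.70, SE 0.28, adjusted p = 5.96e-06). Sst, somatostatin of interneurons, was higher by 4.60 (11.73, 11.62 and 11.73, with heart under the floor). Adm, adrenomedullin, a vessel-relaxing peptide, was also higher in hippocampus, at 14.41, 14.03 and 14.65 against 10.97, 10.99 and 11.11 (3.34, SE 0.27, adjusted p = 3.12e-05). Samples were close together in each tissue for these genes. Pcsk1n, an inhibitor of peptide processing, was higher by 4.25 (SE 0.84) over uneven hearts (10.59, 6.56 and 7.86). The heart hormones Nppa (10.90, 11.66 and 10.01 against 15.29, 13.28 and 14.68; −3.56, SE 0.54) and Nppb (−1.43, SE 0.34) were lower in hippocampus. So was Crh, the stress hormone releasing factor, at 7.12, 7.54 and 7.26 against 9.40, 8.89 and 9.17 (−1.85, SE 0.28, adjusted p = 0.00121), with hippocampus close to the floor.

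Of 29 calcium-binding and calcium-dependent kinase genes 13 (44.8%) were higher and 6 (20.7%) lower (median 0.43). Camk2a and Camk2b, the main calcium-dependent kinases of synapses, were higher by 6.57 and 5.06 on their brightest probe sets. The dimmer ones, at −0.09, −0.19 and −0.12 for Camk2a and 0.13 for Camk2b, did not pass the test. Camk2b read 13.94, 14.15 and 15 in hippocampus and 9.60, 9.02 and 9.29 in heart. Hpcal4, a neuronal calcium sensor (4.93, SE 0.40), and S100b, a calcium-binding protein of astrocytes (14.17, 14.19 and 14.92 against 9.16, 9.43 and 9.93; 4.92, SE 0.34), followed. Other S100 genes went the other way. S100a6 read 7.76, 6.82 and 7.41 against 10.37, 10.18 and 9.71 (−2.76, SE 0.31), S100a10 differed by −2.07 (SE 0.27) and S100a4 by −1.23 (SE 0.22), without overlap in any of them. Camk4, a nuclear kinase of neurons and T cells, also read lower in hippocampus (−1.46, SE 0.32).

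Of 23 genes of glutamate and glial transport 5 (21.7%) were higher and 2 (8.70%) lower, against 12.4% and 12.9% of all genes (median −0.14). Slc12a5, the chloride exporter that matures in neurons after birth, read 14.49, 14.38 and 15.22 in hippocampus and 10.29, 9.83 and 10.23 in heart (4.58, SE 0.28, adjusted p = 8.62e-06). Slc12a2, the chloride importer, was higher by 1.74 (13.72, 13.70 and 14.36 against 11.71, 12.41 and 12.45; SE 0.30). The astrocyte glutamate transporter Slc1a3 (1.83, SE 0.33) and the taurine transporter Slc6a6 (0.98, SE 0.25) were higher, and the monocarboxylate carrier Slc16a1 was lower (−1.30, SE 0.25). Among 26 imprinted and growth genes 5 (19.2%) were higher and 4 (15.4%) lower (median −0.03, likewise 0.05 with centred arrays). These shares are not far from the 12.4% and 12.9% of all genes, and the members are given singly. Ndn, an imprinted gene of neurons, read 12.40, 11.95 and 12.44 against 9.25, 8.37 and 8.49 (3.56, SE 0.28, adjusted p = 2.96e-05), without overlap. Nnat and Snrpn, also imprinted, were higher by 1.86 (SE 0.46, hippocampus at the top of the scale) and 1.68 (SE 0.28). Igfbp7 (−2.23), the growth hormone receptor Ghr (−1.45, hippocampus under the floor), Igfbp3 (−1.40) and the imprinted Mest (−0.80; 4 of 10 fits) were lower.

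The probe set that reads a gene mattered to many of these values. Of 4525 genes with 2 or more probe sets, 191 had every probe set called in 1 direction, 1808 had some called and others not, 149 had probe sets called in opposite directions and 2377 had none called. Among the 4104 of them with 2 or more probe sets above the floor in a tissue the opposite calls numbered 141. Genes given here that are not named above were chosen after their values were seen. Tpm1, the tropomyosin whose transcripts are spliced differently in muscle and brain, had 7 probe sets. The 4 brightest differed by −1.93, −4.89, −3.91 and −5.52 and were called. The other 3 differed by 0.72, 0.11 and −0.31 and were not. The largest of these read 8.92, 8.28 and 8.72 in hippocampus and 14.22, 14.61 and 13.65 in heart. Pln differed by −1.92 on its brightest probe set (13.38, 14.47 and 13.09 against 15.51, 15.65 and 15.55) and by −5.21 on the next (11.79, 8.53 and 11.28 against 15.68, 15.82 and 15.73). On the latter, hippocampus pup 2 lay far below the other hippocampus samples. Atp2a2, the calcium pump of heart and of brain, had 5 probe sets, of which the brightest did not differ beyond its error (15.20, 15.17 and 15.17 against 15.06, 15.15 and 15.09; 0.08, SE 0.19). These values all lay above 15, in the compressed range. The next probe set was lower (−1.49, adjusted p = 0.000638), another higher (1.18, adjusted p = 0.0366) and the remaining 2 not called.

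Opposite calls also occurred in genes of neurons and glia. Kcna2, a potassium channel of axons, read 9.28, 9.45 and 9.5 in hippocampus and 11.70, 11.47 and 11.25 in heart on its brightest probe set, and 11.72, 11.01 and 12.38 against 8.93, 8.96 and 9.02 on the other. The differences were −2.06 (SE 0.20) and 2.73 (SE 0.31), neither with overlap. Aqp4, the water channel of astrocyte end feet, read 10.36, 10.54 and 11.13 against 12.57, 12.68 and 11.64 on its brightest probe set (−1.62) and 10.22, 10.02 and 10.28 against 7.18, 8.07 and 7.86 on the next (2.47). Averaged over its probe sets, Kcna2 was at 0.34 and Aqp4 at 0.30, so that their directions depend on the probe set. Nid1, a basement membrane protein, differed by −2.12 and 1.49. Grin1, the obligate NMDA receptor subunit, was higher on both of its probe sets, by 1.02 and by 6.09 (13.48, 13.67 and 14.90 against 7.84, 7.80 and 8.15). Mobp, a myelin protein, was higher on all 3, by 5.12, 6.53 and 1.29. Atp2b1, a plasma membrane calcium pump, was not called on its brightest (0.96) and was higher on the other probe sets by 3.47 and 3.07. The transcript region that each probe set reads was not looked up.

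**Figure D5:**
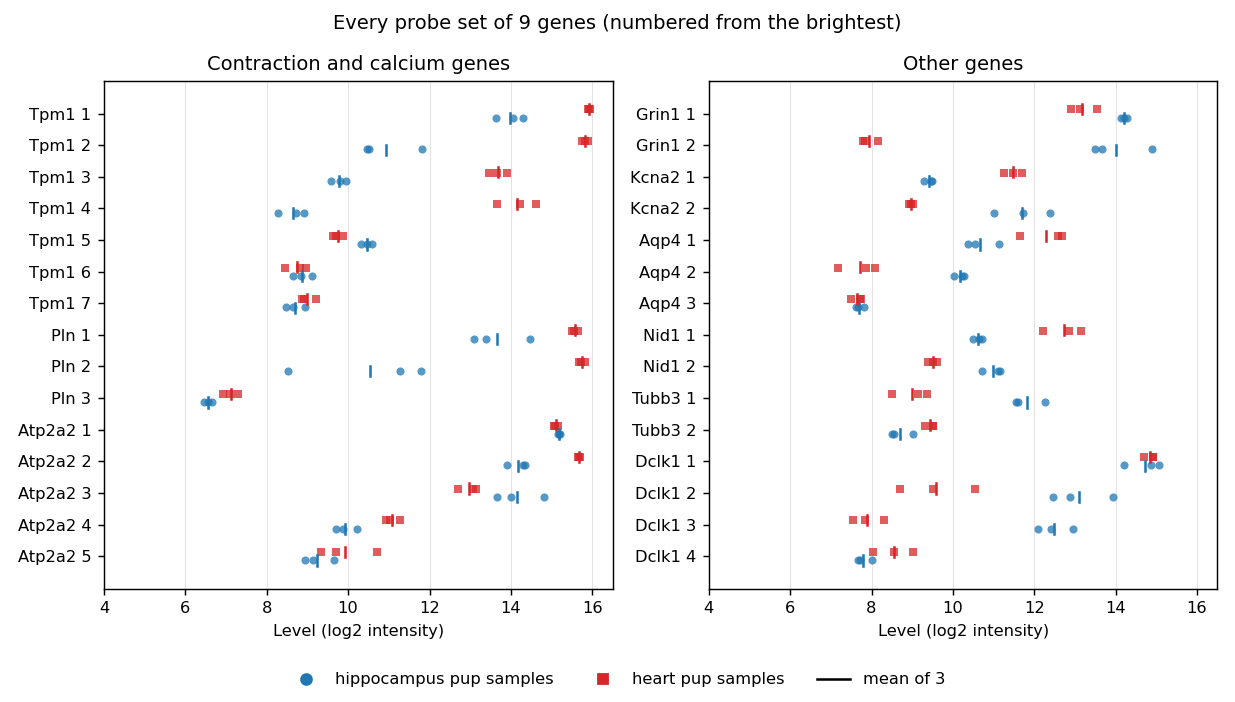
Level (log2 intensity) of every probe set of 9 genes, numbered from the brightest, in the 3 hippocampus pup samples (blue circles) and 3 heart pup samples (red squares), with vertical bars at the mean of 3. For Kcna2 the heart samples sit at 11.25 to 11.70 above hippocampus on probe set 1 and at 8.93 to 9.02 below it on probe set 2.

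In adults 2855 genes (20.1%) were called between the same tissues. Of the 3609 pup calls, 1955 (54.2%) were shared with adults in the same direction, which was 68.5% of the adult calls, and 14 were called in opposite directions. The pup difference itself departed from the adult one in 24 probe sets (0.0773% of those tested), among them Postn, with age and source of RNA not separable. That count was 0 in every fit without 1 sample, with median centring and among brighter probe sets, and 3 with range scaling.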

How the data were processed

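Biotin-labelled RNA of 3 hippocampus and 3 heart pup samples was read on Affymetrix rat expression arrays. The authors deposited log2 values per probe set, made with RMA 2.0 according to the submitters' processing notes. The background correction is not named in what was read here, and the deposited values were neither centred nor scaled per array (pup array medians 9.33 to 9.44, 792 to 866 probe sets above 15). On this scale differences are compressed near the floor and near the top. The number of arrays limits precision.

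Of 31099 probe sets, 57 controls were left out. Of the 31042 tested, 20826 had 1 symbol in the platform table, 436 had several and 9780 had none listed, and a gene was read by its single-symbol probe set with the highest mean over the 10 samples (14217 genes). The 2 technical arrays of each adult sample were averaged. Linear models with a mean for each of the 4 groups were fitted by lmFit and eBayes of limma 3.58.1 (R 4.3.3), with 6 residual and 3.55 prior degrees of freedom. No column of per-sample values was left unused. Same-numbered hippocampus and heart samples did not deviate together (correlations 0.066, −0.022 and −0.214), so the numbers were not treated as pairs.

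Samples, members and the 39 gene and marker lists were chosen with earlier results of these data known. Genes were named by rule: the 10 largest called differences per direction with no overlap and both means above the floor, up to 4 called members per list and direction, every member of the energy, contractile and ion pump lists, and up to 5 genes by difference between ages or by range within a tissue, symbols starting with LOC or RGD left out. Alternatives covered scaling, dim probe sets, the samples fitted, a replicate block, the methods' t-test, the threshold, the reading of a gene and leaving out each sample. Promoter sequences came from RefSeq on GRCr8.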

Additional observations from a re-analysis of the deposited data

Results flagged for a closer look

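The difference between the tissues departed from the adult one in 24 of 31042 probe sets by the interaction contrast (limma, adjusted p under 0.05). The 5 named genes with the largest departures follow, and 3614 probe sets had an unadjusted p under 0.05. No probe set was called in any fit that left out 1 sample, and pups and adults also differed in how their RNA was obtained, so that age and source of RNA cannot be told apart. Among genes with a symbol, Lrrc75a showed the largest departure, 4.15, since pup tissues differed by 0.93 and adult tissues by −3.22. A probe set with no symbol listed departed by more, 5.06. Postn departed by −3.53, with pup hearts at 11.89, 11.67 and 11.40 and adult hearts at 7.37 and 7.12, against 7.86, 7.33 and 7.25 in pup and 6.68 and 6.52 in adult hippocampus. Fam111a departed by −3.34, with pup hearts at 14.55, 14.92 and 14.17 and every other sample between 7.82 and 10.87. Lrrc15 departed by 3.23, with pup tissues at −0.02 and adult tissues at −3.25. Klhdc3 departed by −3.22 on a probe set where pup tissues differed by −0.03 and adult tissues by 3.19.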

How the results depend on the processing

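Between pup tissues 7486 probe sets were called (3659 higher, 3827 lower in hippocampus) and 3609 genes. Among brighter probe sets only, 3662 were called (1931 higher, 1731 lower; 2106 genes), with fewer tested. The methods' t-test called 4210 (2230 higher, 1980 lower; 2126 genes) and 1 at the study's stricter threshold of 0.001, at which limma called 1615. With pup arrays only, 6173 were called (3033 genes) and, with the replicate number as a block, 3944 (2116 higher, 1828 lower; 1977 genes). Calls lost under the block or the t-test were not traced to a cause. Leaving out 1 sample gave 5327 to 7191 probe sets, 2789 to 3531 higher and 2538 to 3660 lower, the lowest without hippocampus pup 1, and 2655 to 3483 genes. Scaling moved the split, to 3908 higher and 3243 lower by quantile normalization, 3980 and 3215 by median centring, and 3923 and 3184 with range scaling, and moved the median over all genes from −0.09 to between −0.04 and −0.01. The departure from adults fell to 22 probe sets by quantile normalization, 3 with range scaling and 0 with median centring (3519 at unadjusted p under 0.05), with brighter probe sets (1499), at 0.001, and without any 1 sample (2558 to 3931). Reading a gene by the mean of its probe sets called 3849 genes and turned Aqp4 to 0.30, Kcna2 to 0.34, Cacnb2 to −0.26, Eomes to −0.075, Nrg1 to −0.16, Pdgfrb to −0.060 and Tbx3 to −0.29, and 25 more of the 334 called genes followed were no longer called. List medians kept their sign under the 3 scalings, except that those of junctions, imprinted and growth genes and atrium, all near 0, turned with median centring. Values under 7.24 or above 15 limit what a difference can show.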

Other observations

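Some genes ranged widely among the 3 samples of a tissue. In hippocampus, Cacfd1 read 8.82, 14.01 and 7.41 in pups 1 to 3, and Exoc7 read 11.53, 14.83 and 9.69. Cd86, a costimulatory molecule of immune cells, read 8.06, 10.82 and 13.15 in the same samples. Hippocampus pup 2 was the highest for Cacfd1 and Exoc7, and for Pacsin3 as well (10.12, 14.78 and 9.79). In heart, E2f1, a regulator of entry into DNA synthesis, read 8.77, 12.46 and 15.35, Rbms3 read 8.41, 8.31 and 14.03, and Med11, a subunit of the Mediator complex, read 13.48, 7.97 and 7.75. None of these genes was called between the tissues on these probe sets, and another probe set of Cd86 was called at −1.21.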
